A study of Mus musculus with 2 samples.

Results

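Hepatocytes in the middle tercile of a score between the periportal and the pericentral end of the liver lobule, taken as midlobular cells, were described in 1 liver library from chow-fed mice and 1 from mice on a NASH diet. They numbered 894 barcodes, 607 from chow and 287 from the NASH diet, out of 13240 barcodes deposited (7359 and 5881). A barcode counted as a hepatocyte with at least 10000 unique molecular identifiers (UMIs, each counting 1 captured RNA molecule), at most 30% UMIs of mitochondrial genes, and at least 2% UMIs of the secreted proteins Alb, Apoa1, Apoa2, Ttr and Serpina1c. Hepatocytes were then ordered by a score, the UMIs of the pericentral genes Cyp2e1 and Cyp1a2 over those UMIs plus the UMIs of the periportal genes Cyp2f2 and Hal. Members were thus chosen by measured values of the same cells. The middle tercile of the score, 1 of 3 parts of about equal size, was taken within each library. There were 1839 scored chow and 934 scored NASH diet hepatocytes. With tied scores kept together, the NASH diet parts held 336, 287 and 311 barcodes from the low to the high end. Hamp and Hamp2, used as markers of the midlobular zone, were not in the score. Most members had scores near the periportal end and Hamp was little above that of the low tercile, so the cells are called by their tercile below.

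The study compared single liver cells of C57BL/6 mice on chow with those of C57BL/6 mice on a diet high in fructose, fat and cholesterol, each given for 6.5 weeks. NASH stands for non-alcoholic steatohepatitis, fatty liver with inflammation. Liver tissue was digested with collagenase, and cells were collected on 90% and 25% Percoll spun at 100 g and 1000 g, which keeps hepatocytes of several densities with the non-parenchymal cells. The labels name version 3 of the 10x Genomics 3' chemistry, and how many mice were pooled per diet is not stated there. With 1 library per diet, no difference was tested or compared with the variation among mice. All intervals given are 95% intervals that cover counting error only.

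Blood enters the lobule at the portal tracts and leaves at the central vein, and hepatocytes along this path divide their work. Periportal cells are known for urea synthesis and glucose release, pericentral cells for glutamine synthesis and drug oxidation, and midlobular cells for hepcidin, the iron hormone encoded by Hamp. Hepcidin blocks export of iron from cells, and its transcription is driven by BMP ligands through SMAD proteins and by interleukin 6 through STAT3. Midlobular hepatocytes are also known as a source of new hepatocytes in the resting liver, with Igfbp2 and cyclin D1 (Ccnd1) among the genes linked to them.

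The promoters of both hepcidin genes are shown because Hamp and Hamp2, near-identical neighbours, differed between the libraries in opposite directions. Both lie on the minus strand of chromosome 7. In the GENCODE M21 annotation Hamp (ENSMUSG00000050440) spans 30942368 to 30944032 and Hamp2 (ENSMUSG00000056978) spans 30922372 to 30924681. The sequences are the 250 bases before the RefSeq start site in build GRCm38.p6, at chr7:30944030-30944279 for Hamp and chr7:30924182-30924431 for Hamp2. The Hamp2 stretch also lies in an intron of a longer annotated Hamp2 transcript. Capitals mark the BMP response element core GGCGCC in Hamp with the bases aligned to it in Hamp2, and the STAT site, searched as TTCNNNGAA.
Hamp: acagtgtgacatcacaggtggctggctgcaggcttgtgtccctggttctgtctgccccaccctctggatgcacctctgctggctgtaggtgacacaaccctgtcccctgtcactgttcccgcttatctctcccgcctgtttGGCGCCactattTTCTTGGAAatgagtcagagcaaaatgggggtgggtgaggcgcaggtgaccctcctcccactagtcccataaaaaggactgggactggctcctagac
Hamp2: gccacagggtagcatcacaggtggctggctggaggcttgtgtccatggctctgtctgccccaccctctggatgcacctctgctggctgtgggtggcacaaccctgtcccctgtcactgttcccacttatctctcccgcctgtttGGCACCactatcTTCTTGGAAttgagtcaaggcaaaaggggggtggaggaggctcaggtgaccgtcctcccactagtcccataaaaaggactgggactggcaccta

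Both motifs were searched on both strands of the RefSeq window of 300 bases, which also takes 50 bases after the start site. In that window 276 of 297 aligned bases (92.9%) were the same in Hamp and Hamp2. The STAT site TTCTTGGAA was present in both, starting 97 bases before the start site in Hamp and 94 in Hamp2. The BMP core was found in Hamp only, 109 bases before the start site, and the substitution there was G145A, with the Hamp base first and positions counted from the 5′ end of the Hamp window. Of 32851 mouse promoters of this length, 11.9% held the BMP core and 8.30% the STAT site. These matches are descriptions of letters and were not tested as binding sites. The annotated transcripts of Hamp (410 bases) and Hamp2 (437 bases) matched at 94.6% of aligned bases, with a longest shared run of 87, so reads could be shared and the Hamp2 values are uncertain.

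The hepatocyte identity of the middle tercile was checked against 8 hepatocyte markers not used to choose the cells. All 8 were detected, with summed levels of 34948 CPM (UMIs of a gene per 1000000 UMIs) in chow and 23692 CPM under the NASH diet. The members had a median of 25856 (chow) and 22212 UMIs (NASH diet), 15875852 and 6508146 in all. Their median mitochondrial share was 18.4% and 24.3%, a difference that cannot be told apart from the diet. Markers of most other cells were near 0. The 8 endothelial markers summed to 2.83 and 3.23 CPM, the 9 Kupffer cell and macrophage markers to 1.95 and 1.23 CPM, and the 7 T and NK cell markers to 0.25 and 0.46 CPM. Among them Lyve1 was at 0 in both libraries, Csf1r in chow, and Pecam1, Kdr, Vsig4, Timd4 and Adgre1 in the NASH diet library. Cholangiocyte markers were an exception and summed to 137.9 and 45.6 CPM. Epcam, Krt19 and Cldn7 were at 0 in chow and Krt7 in the NASH diet, and the other markers of the list were detected. After thinning, 49.3% of chow and 26.5% of NASH diet members had a UMI of this list. Its sums were 289 and 78.9 CPM in the low and 21.5 and 11.8 CPM in the high tercile. The B cell, neutrophil, mesenchymal and erythroid lists summed to between 0.06 and 2.92 CPM in either library. Barcodes with a high Scrublet score, which can hold 2 cells, were 75 (12.4%) of the chow members and 4 (1.39%) of the NASH diet members. In the low and high terciles they were 2.42% and 7.67% in chow, and 1.49% and 1.29% in the NASH diet library. In chow they were thus most frequent in the middle tercile. Their part in the results was not tested beyond the values without them. No barcode sequence was shared by the hepatocytes of the libraries (0), although 69 were shared among all barcodes.

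The score split the hepatocytes into 2 large groups with few barcodes between them. The score was exactly 0 in 532 chow hepatocytes (28.9%) and 336 NASH diet hepatocytes (36.0%). Ties at the lower limit were kept in the low tercile and ties at the upper limit in the middle tercile. The middle tercile therefore ran from above 0.0182 to 0.888 in chow and from above 0 to 0.618 in the NASH diet library, with medians of 0.0612 and 0.0385. Most members sat close to the periportal end, with a score of at most 0.1 in 360 chow (59.3%) and 199 NASH diet members (69.3%). Within 0.02 of a limit were 214 and 75 members.

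**Figure D1:**
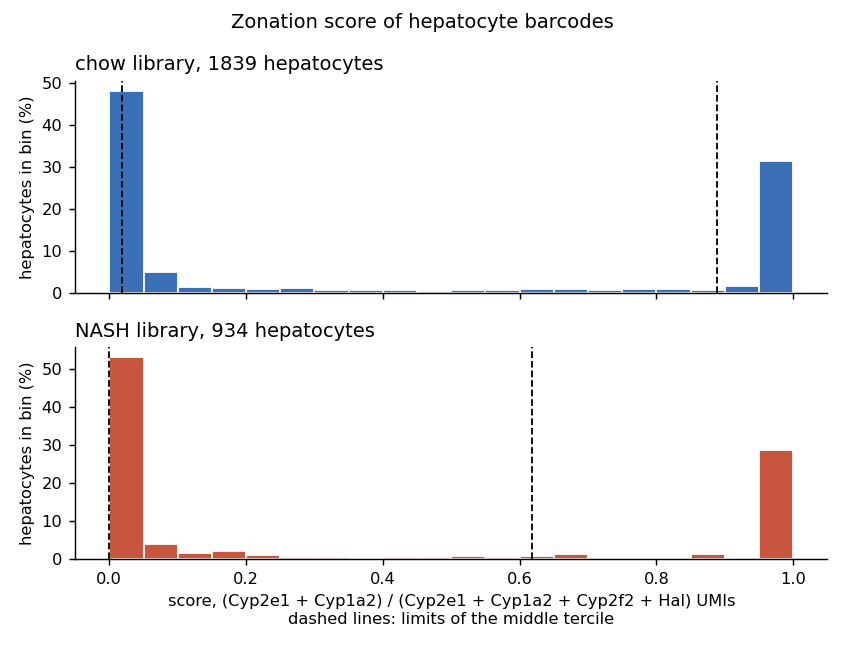
Share of hepatocyte barcodes (%) in 20 bins of the score, for the 1839 chow and 934 NASH diet hepatocytes, with dashed lines at the limits of the middle tercile. Most barcodes lie in the first and last bins, and the limits differ between the libraries, at 0.0182 and 0.888 in chow and at 0 and 0.618 in the NASH diet.

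Membership often rested on few molecules. In 312 chow (51.4%) and 178 NASH diet members (62.0%) the pericentral part of the score was 1 or 2 UMIs. At least 3 UMIs of each side were present in 288 (47.4%) and 109 (38.0%). Cyp2e1 stood at 93.1 and 73.9 CPM in barcodes with endothelial markers (47 chow and 35 NASH diet, median 5307 and 5175 UMIs), cells that should lack it. The part of free RNA in the 1 or 2 UMIs of these members was not tested.

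The genes of the score, which chose the members, stood at mixed levels. Cyp2e1, which oxidises ethanol and drugs, was at 356 CPM in chow and 354 CPM in NASH diet members. Cyp2f2, a periportal oxidase, was at 1119 and 1882 CPM, and Hal, which degrades histidine, at 234 and 375 CPM. Just inside the upper limit, 25 chow members had 1749 CPM of Cyp2e1 and 304 CPM of Cyp2f2, and 25 barcodes just outside had 1429 and 108 CPM. In the NASH diet library the same groups had 2028 and 1674 CPM inside and 2914 and 1158 CPM outside. At the lower limit of chow, Cyp2e1 was at 26.4 CPM inside and 22.3 CPM outside.

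Hamp was highest in the middle tercile in both libraries. In chow it was at 3717 CPM in the low, 4355 in the middle and 3476 in the high tercile. Under the NASH diet it was at 1742, 2048 and 770 CPM. The middle tercile was 1.17-fold (1.16 to 1.19) above the low and 1.253-fold (1.24 to 1.27) above the high tercile in chow. Members of the NASH diet were 1.18-fold (1.15 to 1.21) above the low tercile and 2.66-fold (2.58 to 2.74) above the high tercile. Hamp thus differed little between the middle and the periportal end, and most from the pericentral end under the NASH diet. All 6 values come from 2 libraries and the cells were ordered by genes read in the same barcodes, so they are a description.

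Along the score Hamp was highest in bands between the ends. In chow it was at 3754 CPM at score 0, 3984 at 0 to 0.05, 4227 at 0.05 to 0.2, 4457 at 0.2 to 0.8, 3685 at 0.8 to under 1 and 3540 CPM at 1. Under the NASH diet the bands held 1742, 1528, 3036, 2583, 858 and 456 CPM. The 2 highest bands were the same in both libraries, 0.05 to 0.2 and 0.2 to 0.8. The highest NASH diet band, 0.05 to 0.2, had the periportal gene Sds at 825 CPM and Cyp2e1 at 205 CPM, against 2.5 and 5734 CPM at score 1. The NASH diet members of score 0 to 0.05 (160 of 287) had a lower Hamp level than the cells at score 0.

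Hamp was read in nearly every member, with a wide spread from cell to cell. After each barcode was thinned to 10000 UMIs, a Hamp UMI was found in every chow member (100%, 99.4 to 100) and in 94.4% (91.1 to 96.8) of members of the NASH diet, and before thinning in 100% and 98.3%. The shares in the low tercile were 99.8% and 92.9%, and in the high tercile 98.9% and 65.9%. The thinned count per chow member had a median of 38 UMIs, with quartiles at 26 and 52 and a range of 1 to 223. The NASH diet members had a median of 14, quartiles at 6 and 23 and a range of 0 to 179. The ranges overlap, but the lower quartile of chow lies above the upper quartile of the NASH diet. Barcodes with endothelial markers held Hamp at 344 CPM in chow and 79.2 CPM in the NASH diet, and those with macrophage markers at 221 and 231 CPM, against 4355 and 2048 CPM in members. Before thinning a Hamp UMI was present in 78.7% and 37.1% of the endothelial and 63.4% and 41.7% of the macrophage barcodes. Their median depths were 5307 and 5175 UMIs, and 4496 and 2353.5 UMIs. A Hamp UMI alone therefore does not mark a member, and the levels separate the classes more than the shares do.

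Across single members Hamp varied little with other genes. Its Spearman correlation with the acute phase genes Orm1 and Orm2 was 0.24 over 607 chow and 0.35 over 287 NASH diet members, and with Saa1 and Saa2 it was 0.22 and 0.21. With Id1, a target of BMP signals, it was 0.15 and 0.17, and with Hamp2 0.05 and −0.02. The cells of a library share its depth and background, and in sparse counts such weak values are no finding.

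Hamp2 was highest in the middle tercile in the NASH diet library alone. It was at 3.90 CPM in the low, 6.24 in the middle and 6.80 CPM in the high tercile of chow, so the chow middle tercile was not above the high tercile (0.92-fold, 0.69 to 1.21). In the NASH diet it was at 25.8, 38.3 and 17.4 CPM, 1.48-fold (1.22 to 1.81) above the low and 2.20-fold (1.79 to 2.71) above the high tercile. The counts were small, 99 and 249 UMIs in all members, and 1 barcode held 20.2% and 16.5% of them. A Hamp2 UMI was present after thinning in 4.45% (2.95 to 6.41) of members in chow, in 14.6% (10.8 to 19.3) under the NASH diet, and before thinning in 9.39% and 19.5%. Barcodes with endothelial markers held 0 Hamp2 UMIs in both libraries, which allows a level of up to 14.9 and 19.5 CPM. Those with macrophage markers held 0 in chow (up to 18.1 CPM) and 1 UMI in the NASH diet, 12.8 CPM (0.32 to 71.5).

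Igfbp2, a secreted binding protein for insulin-like growth factors (chromosome 1, 72824503 to 72852474), was highest in the middle tercile of both libraries. In chow it was at 79.7, 151 and 114 CPM from the low to the high tercile, 1.89-fold (1.77 to 2.02) above the low and 1.33-fold (1.249 to 1.41) above the high tercile. In the NASH diet it was at 208, 351 and 256 CPM, 1.69-fold (1.58 to 1.81) and 1.37-fold (1.29 to 1.45). Its maximum along the score was the 0.2 to 0.8 band in both libraries, with 218 and 550 CPM. A thinned UMI was found in 67.2% of chow and 86.4% of NASH diet members, against 49.8% and 77.7% in the low and 55.8% and 75.2% in the high tercile.

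Ccnd1, the D-type cyclin that moves cells into the division cycle (chromosome 7, 144929931 to 144939925), was also highest there. It was at 3.31, 28 and 14.1 CPM in chow and at 18.6, 50.9 and 23.1 CPM in the NASH diet library. Its maximum was again the 0.2 to 0.8 band, with 62.8 CPM in chow and 99.7 CPM in the NASH diet. Thinned shares of members with a UMI were 14.7% and 25.4%, above 2.58% and 13.4% in the low and 9.30% and 12.2% in the high tercile. Mki67, Top2a and Pcna, genes of active division, were at low levels over all members. Mki67 was at 1.95 and 1.54 CPM, Top2a at 2.58 and 0.46 CPM, and the DNA clamp Pcna at 11.4 and 13.8 CPM.

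**Figure D2:**
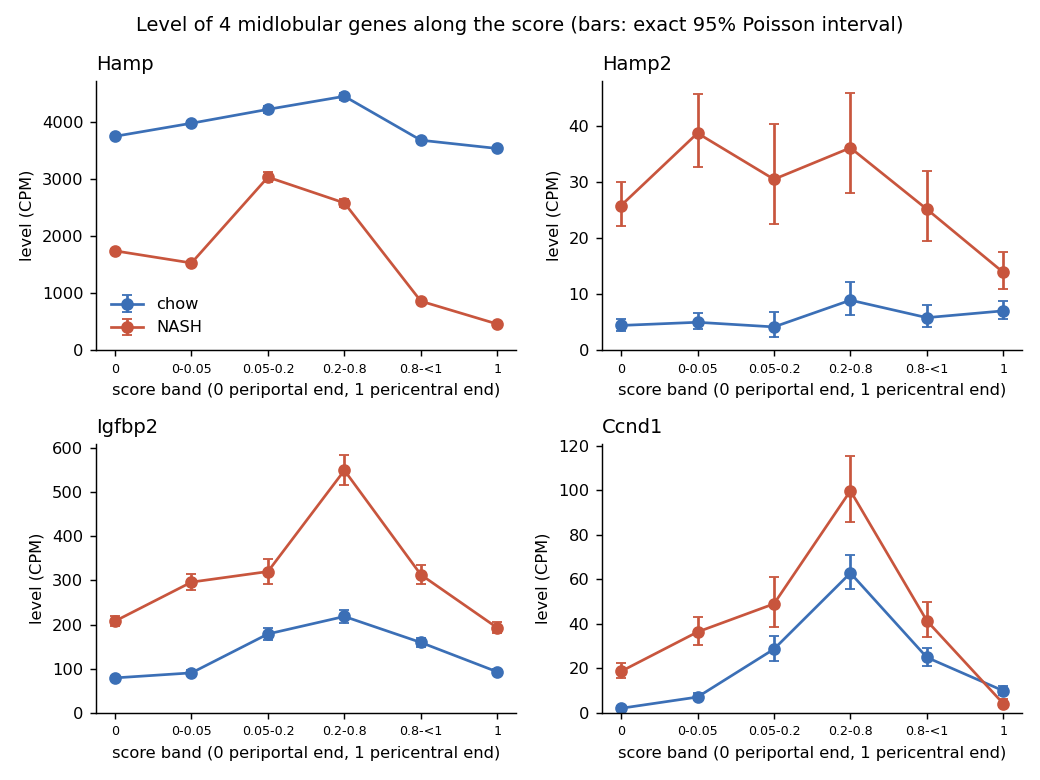
Pooled level (CPM) of Hamp, Hamp2, Igfbp2 and Ccnd1 in 6 bands of the score, from the periportal (0) to the pericentral end (1), with exact 95% Poisson intervals as bars and lines joining the bands of each library. Igfbp2 and Ccnd1 are highest at 0.2 to 0.8 in both libraries, at 218 and 550 CPM and at 62.8 and 99.7 CPM.

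Cyp8b1 and Mup3, taken into the midlobular list with the genes above, did not have that shape. Cyp8b1, which makes the 12-hydroxylated bile acids, was at 105, 109 and 129 CPM in chow and 125, 121 and 127 CPM in the NASH diet. Mup3, a major urinary protein, was at 13448, 12705 and 10984 CPM in chow and 14247, 13610 and 10580 CPM in the NASH diet, lowest in the high tercile of both. Pericentral genes differed in how far they reached into the score. Cyp2c50, a drug oxidase, was at 323 CPM in chow and 319 CPM in the NASH diet at score 0.2 to 0.8, against 995 and 1314 CPM at score 1. Glul, glutamine synthetase, was at 83.4 and 47.4 CPM in the same band, against 793 and 2977 CPM at score 1. Oat, an ornithine aminotransferase, was at 101 and 57.1 CPM against 1380 and 2987 CPM. Sds, a periportal serine dehydratase, still stood at 92.3 and 239 CPM in that band, against 2.74 and 2.5 CPM at score 1.

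Few genes were highest in the middle tercile by a clear margin. A level at least 25% above each outer tercile was reached by 6 of 3914 chow genes of at least 20 CPM there (0.153%) and by 17 of 4018 NASH diet genes (0.423%). Of the 6 chow genes 3 (50%) were also above both outer terciles in the NASH diet library, where 17.6% of all 3914 were. Of the 17 NASH diet genes 10 (58.8%) were above both in chow, where 16.7% of 4018 were. Only Ccnd1 and Igfbp2 passed in both. Hamp missed this margin against the low tercile in both libraries.

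The diet comparison within the middle tercile covered 4276 genes of at least 20 CPM in either library. Ratios are log2 of NASH diet over chow after adding 5 CPM to each level. The gene lists below were chosen with earlier results of these data known, so their counts and medians are descriptions. A 2-fold higher level was found for 108 genes (2.53%) and a 2-fold lower level for 146 (3.41%), together 254 genes (5.94%), and the median of all genes was 0.09. Of the 8045 genes of at least 5 CPM, the minimum for lists, 1.65% were 2-fold higher and 2.1% lower, with a median of 0.06. Shares of all genes higher or lower by any size are not given, so such counts are left out for the lists. Members of the NASH diet tercile are also shifted towards the periportal end of the score, so pericentral genes are given below with windows of equal score.

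Of the 12 highest ratios, 7 belonged to genes of fatty acid oxidation and lipid handling, a grouping made after their values were seen. Cyp4a10 and Cyp4a14, which oxidise the far end of fatty acids, went from 10.3 to 298 CPM (log2 4.31) and from 8.13 to 134 CPM (3.40). Acaa1b, a thiolase of peroxisomes, went from 93.5 to 959 CPM (3.29), and Cyp4a12b from 6.93 to 70.7 CPM (2.67). Scd1, which makes monounsaturated fatty acids, went from 1471 to 10023 CPM (2.76), and its thinned median per member from 10 to 99 UMIs. Apoa4, a lipoprotein component, went from 136 to 1130 CPM (3.01), and the fatty acid transporter Cd36 from 1.32 to 29.0 CPM (2.43). The other 5 were Inmt (3.74), Hsd17b6 (3.08), Usp2 (2.63), Upp2 (2.5) and Car3 (2.32). The Cyp4a genes are near-identical copies and their separate values are uncertain.

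The lowest ratios belonged to the acute phase response and to cholesterol synthesis. Saa2, serum amyloid A, went from 18777 to 412 CPM (−5.49), and Saa1 from 16856 to 892 CPM (−4.23). Thinned Saa1 counts had a median of 160 UMIs per chow member and 6 per NASH diet member, and quartiles of 114 to 203 and 2 to 12. Saa3 (−5.27), Orm2 (−4.39), Apcs (−4.18) and Lcn2 (−3.99) were the others of that response. Idi1 went from 484 to 8.60 CPM (−5.17), and Sqle, squalene epoxidase, from 176 to 0.92 CPM (−4.94). Msmo1 (−4.78), Hmgcs1 (−4.52), Fdps (−3.98) and Nsdhl (−3.88) completed the 12. Saa1 and Saa2 can share reads.

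**Figure D3:**
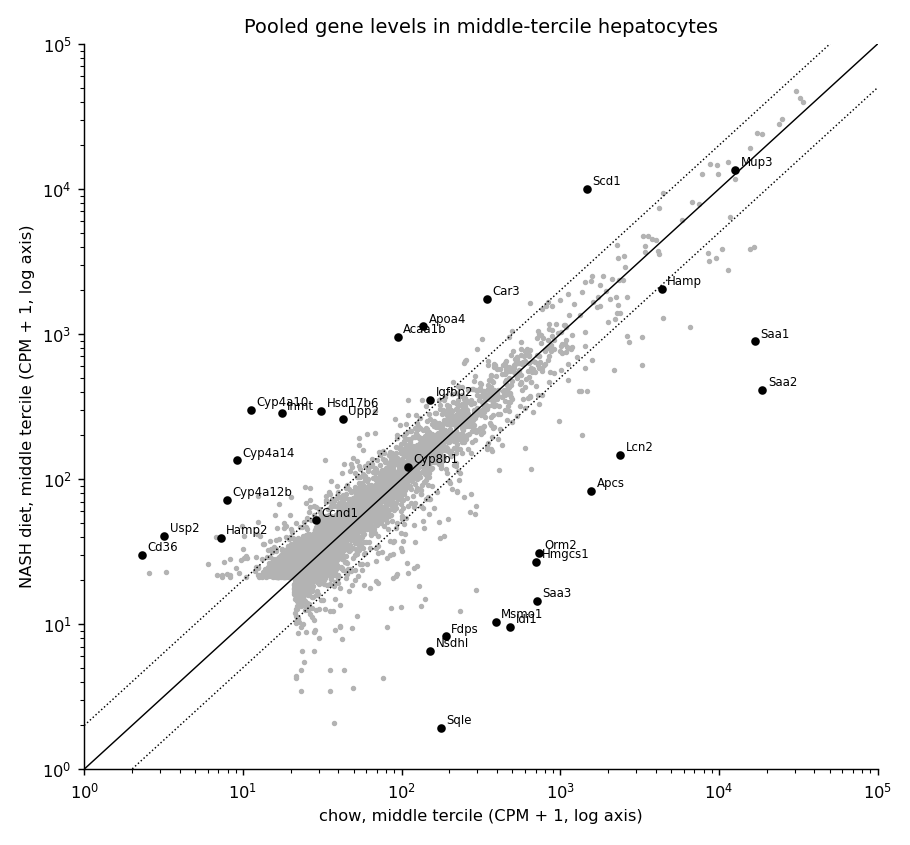
Pooled level of each of 4276 genes in the middle tercile of the chow (x axis) and NASH diet library (y axis), both as CPM + 1 on log axes, with the line of equal level and dotted lines at 2-fold. Black labelled points are the 12 highest and 12 lowest genes and the midlobular list, and Hamp lies below while Hamp2 and Igfbp2 lie above the 2-fold lines.

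The midlobular genes themselves split. Folds of these genes are given without the added 5 CPM, and log2 ratios with it. Hamp in NASH diet members was 0.47 times (0.46 to 0.48) the chow level. Hamp2 was 6.14-fold (4.84 to 7.83) higher, Igfbp2 2.33-fold (2.20 to 2.47) higher and Ccnd1 1.81-fold higher, on 445 and 331 UMIs. Cyp8b1 and Mup3 differed by 1.11-fold and 1.07-fold. In the score window of 0.1 to 0.9, taken in both libraries (254 chow and 128 NASH diet barcodes), Hamp was at 4703 and 2870 CPM, a log2 ratio of −0.71 against −1.09 in the tercile. A window of 1/3 to 2/3 (90 and 42 barcodes) gave 4620 and 2324 CPM and −0.99. With a mitochondrial limit of 20%, which left 381 and 69 members of other score ranges, the ratio of Hamp was −0.27 and that of Hamp2 1.34.

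Among the genes that control hepcidin through BMP and SMAD, 17 of 20 had at least 5 CPM, and 3 of these were 2-fold lower and 0 higher. Over all 8045 genes of that level 2.1% were 2-fold lower and 1.65% higher, and the median ratio was 0.06, against −0.09 for this list. The 3 lower genes were Id1 (29.2 to 7.07 CPM, −1.50) and Id3 (158 to 62.5 CPM, −1.27), targets of BMP signals, and Smad1 (32.0 to 11.7 CPM, −1.15), which carries the signal to the nucleus. Other targets did not pass 2-fold, with ratios of −0.91 for Id2, −0.81 for Smad7 and −0.46 for Atoh8, and Smad6, under 5 CPM, was at 2.02 and 2.15 CPM (0.03). The signal carriers Smad4 and Smad5 were at 0.17 and 0.27. After thinning, 21.4% (18.2 to 24.9) of members in chow had an Id1 UMI, and 5.57% (3.22 to 8.90) under the NASH diet. The receptors and sensors at the cell surface differed less. Ratios were 0.10 for Hfe2 (hemojuvelin), −0.05 for Hfe, −0.38 for Tfr2, 0.16 for Bmpr1a, 0.31 for Bmpr2, −0.21 for Acvr1, −0.09 for Acvr2a and 0.33 for Neo1. Tmprss6, the protease that cuts hemojuvelin, was at 165 and 204 CPM (0.29). The ligands Bmp6 and Bmp2, made mainly by endothelial cells, were at 0.19 and 0 CPM and at 0.25 and 0.15 CPM.

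Of 9 genes of the interleukin 6 arm, all with at least 5 CPM, 2 were 2-fold lower and 0 higher, with a median of −0.30. Over all genes of that level 2.1% were 2-fold lower and 1.65% higher. Socs3, the feedback inhibitor that STAT3 induces, went from 68.2 to 18.9 CPM (−1.61), and the transcription factor Cebpb from 344 to 161 CPM (−1.07). Stat3 itself was at 134 and 90.3 CPM (−0.55). The receptor chains Il6ra and Il6st had ratios of 0.16 and −0.11, the kinases Jak1 and Jak2 −0.30 and 0.02, and the transcription factors Cebpa and Cebpd 0.08 and −0.51.

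Iron handling genes were mixed, with 1 of 16 higher and 3 lower by 2-fold and a median of 0.14. Over all genes of at least 5 CPM 1.65% were 2-fold higher and 2.1% lower. The 3 lower genes, the plasma carriers Hp (−2.04) and Hpx (−2.03) and the oxidase Cp (−1.44), also belong to the acute phase list. Alas1, the first enzyme of heme synthesis, went from 71.2 to 152 CPM (1.05). The ferritin chains Ftl1 (0.53) and Fth1 (0.45), which store iron, and the iron exporter Slc40a1 (0.32) had higher levels of less than 2-fold, and the transferrin receptor Tfrc was at 7.43 and 10.1 CPM (0.28).

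The pericentral genes not used in the score were lower in NASH diet members, but this largely moved with the score limits. Of 19 with at least 5 CPM, 0 were 2-fold higher and 3 lower, against 1.65% and 2.1% of all genes, with a median of −0.71. With the windows of 1/3 to 2/3 and 0.1 to 0.9 taken in both libraries, the median was −0.17 and −0.18 and 2 were 2-fold lower. Cyp2c29, a drug oxidase, stood apart, at 75.9 CPM in chow and 3.23 CPM in NASH diet members (−3.30). It stayed low in the equal windows, at 189 and 13.0 CPM and at 186 and 35.2 CPM. Its levels in the high tercile were 1121 and 1078 CPM. Cyp3a11, another drug oxidase, was at 408 and 114 CPM (−1.80) in members and −1.54 and −1.06 in the windows, while Gulo, an enzyme of vitamin C synthesis, went from −1.23 to −0.45 and −0.50. Cyp2c genes can share reads. With a stricter filter of 20000 UMIs per barcode the NASH diet middle tercile ran up to a score of 0.986, and Cyp2c29, Cyp3a11, Gulo and Mup17 then had ratios of 0.10, 0.10, 0.13 and 0.46. With the mitochondrial limit of 20%, where members ran up to a score of 0.161 in chow and 0.996 in the NASH diet, the pericentral median was 2.16 and Cyp2c29 was at 4.46.

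The periportal genes not used in the score leaned the other way, with a median of 0.52. Of 24, 5 were 2-fold higher and 1 lower, against 1.65% and 2.1% of all genes. In the equal windows the medians were 0.50 and 0.58. Hsd17b6, a steroid and retinoid dehydrogenase, went from 30.2 to 293 CPM (3.08), and to 3.77 and 3.60 in the windows. Other genes past 2-fold were Etnppl (1.70), Aldh1b1 (1.57) and Sds (209 to 465 CPM, 1.14), besides Apoa4. Urea cycle genes were higher by less, with Ass1 at 884 and 1553 CPM (0.81), Asl at 0.69, Cps1 at 0.52 and Otc at 0.51, and Arg1 at −0.05. Ctsc, a protease, was lower (−1.01).

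Fat oxidation genes were higher as a group. Of all genes of at least 5 CPM, 1.65% were 2-fold higher, with a median of 0.06. Of 18 PPAR-alpha targets of peroxisomes and omega oxidation 9 were 2-fold higher and 0 lower, with a median of 1.02. Besides Cyp4a10, Cyp4a14 and Acaa1b these included Ehhadh, which carries out a step of peroxisomal oxidation (66.9 to 294 CPM, 2.06), Acot1 (1.88), Vnn1 (1.65) and the receptor Ppara itself (33.7 to 80.4 CPM, 1.14). Crot was lower (−0.48). Of 19 genes of mitochondrial fatty acid oxidation and ketogenesis only Eci1 passed 2-fold (1.14), and the median was 0.74. Cpt1a, which admits fatty acids to mitochondria, was at 174 and 302 CPM (0.78).

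Genes of lipid droplets and lipid uptake, a list that also holds lipases and carriers, were higher too. Of 13 genes 6 were 2-fold higher (1.65% of all genes were) and 0 lower, with a median of 0.87. Cidec, which fuses lipid droplets, was at 0.57 and 12.1 CPM (1.62), on 9 and 79 UMIs. Mgll (1.56), G0s2 (1.48), the fatty acid carrier Fabp1 (4465 to 9438 CPM, 1.08) and Fitm2 (1.03) followed Cd36, while the droplet coat Plin2 was at 321 and 375 CPM (0.22). Fatty acid synthesis was not higher as a group, with 1 of 17 higher (Scd1), 1 lower (Lpin1, −1.15) and a median of 0.09. Fasn, the synthase, was at 109 and 64.4 CPM (−0.72) and Acly at 218 and 122 CPM (−0.81), while their regulator Srebf1 was at 41.5 and 76.8 CPM (0.82).

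Genes of cholesterol synthesis were lower, and those of bile acid synthesis and sterol export were mixed. Of 25 genes of cholesterol synthesis and uptake 21 were 2-fold lower (2.1% of all genes were) and 0 higher, with a median of −2.16. Srebf2 (−1.35), a transcription factor that drives sterol synthesis genes, was among them. Of 16 genes of bile acid synthesis and sterol export 4 were 2-fold higher (1.65% of all genes were) and 0 lower, and the median was 0.29. The 4 were Cyp7a1, the rate-limiting enzyme of bile acid synthesis (14.9 to 55.6 CPM, 1.61), Akr1d1 (1.28) and the sterol exporters Abcg5 (1.72) and Abcg8 (1.08). Cyp7b1, of the alternative bile acid pathway, was at 368 and 193 CPM (−0.91), and the exporter Abca1 at 161 and 140 CPM (−0.20).

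The acute phase list was lower in 20 of 23 genes by 2-fold, against 2.1% of all genes, with 0 higher and a median of −1.79. Fibrinogen chains Fga (−1.52), Fgg (−1.44) and Fgb (−1.43), complement C3 (−1.78) and Lbp (−1.66), the carrier of bacterial lipopolysaccharide, were among these. Saa4, a form made in the resting liver, was at 629 and 557 CPM (−0.17). The metallothioneins, which bind zinc and copper, were lower as well, with Mt2 at 3291 and 614 CPM (−2.41) and Mt1 at 8542 and 3614 CPM (−1.24). Among 13 immediate early genes, known to answer to cell isolation, Egr1 (−1.41) and Zfp36 (−1.04) were 2-fold lower and 0 higher, with a median of −0.58. This was weaker in the score windows of 1/3 to 2/3 and 0.1 to 0.9 taken in both libraries. The medians there were −0.21 and −0.34, with 0 and 1 genes 2-fold lower. The part of cell isolation in any of these differences was not tested.

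**Figure D4:**
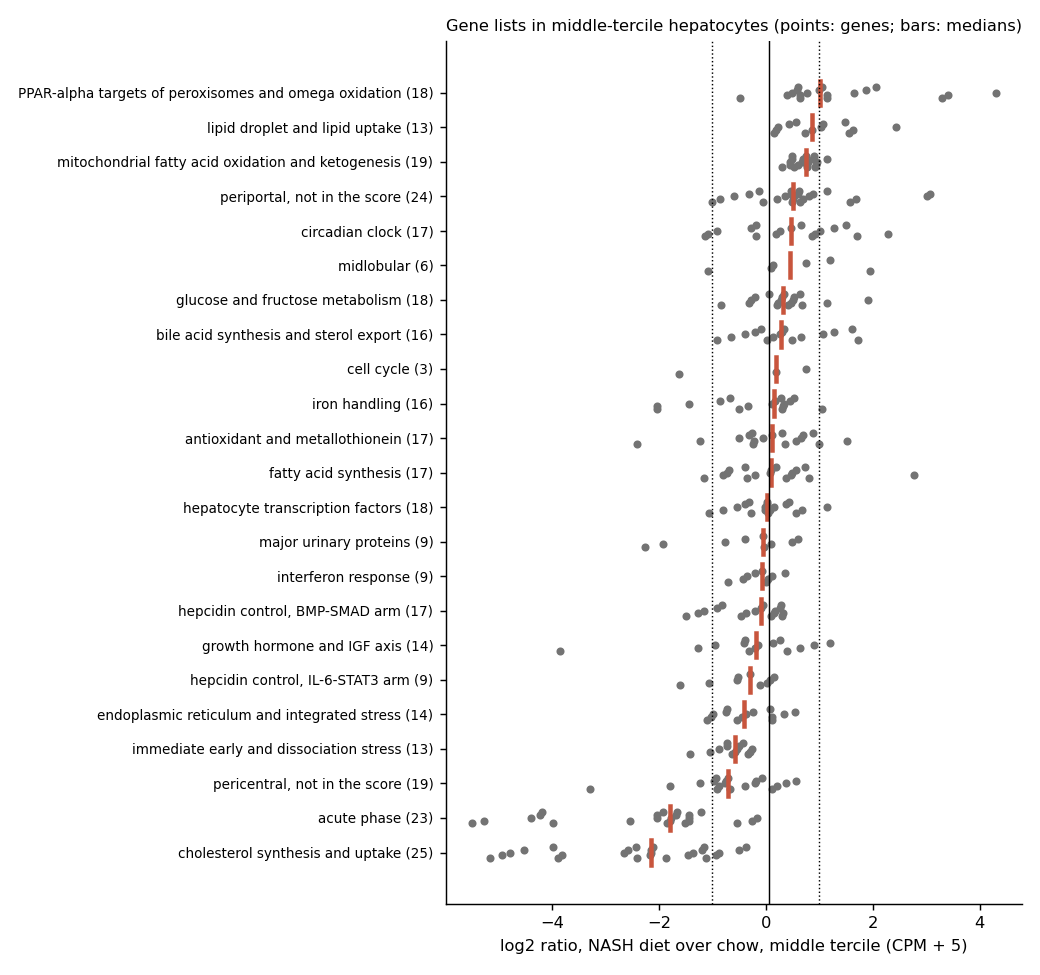
Log2 ratio of NASH diet over chow (x axis, CPM + 5) for genes of at least 5 CPM in the middle tercile, in 23 lists with their number of genes. Points are genes, red bars list medians, the solid line the median of all genes (0.06) and dotted lines 2-fold, and the medians run from −2.16 for cholesterol synthesis to 1.02 for PPAR-alpha targets.

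The diet ratio in the middle tercile was compared with those of the outer terciles. This covered 4177 genes of at least 20 CPM in the middle tercile of either library. Score and gate genes were left out, as were symbols that start with Gm and a digit, end in Rik or start with mt-. The middle ratio lay between the outer ones for 1756 (42.0%), above both for 1005 and below both for 1416. The median distance from the low tercile was 0.09 and from the high tercile 0.15, so members were nearer to the periportal end. Hamp followed this order, with 0.47 times the chow level in the low tercile, 0.47 in the middle and 0.22 (0.22 to 0.23) in the high tercile. Hamp2 was 6.61-fold, 6.14-fold and 2.56-fold higher in these terciles, and Igfbp2 2.61-fold, 2.33-fold and 2.25-fold. Ccnd1 was 5.61-fold, 1.81-fold and 1.64-fold higher.

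Several lists differed between the middle and the high tercile. PPAR-alpha targets had medians of 0.92 in the low, 1.02 in the middle and 1.71 in the high tercile. Cholesterol genes had −2.11, −2.16 and −1.68, and Hmgcs1 alone −4.76, −4.52 and −3.09. Immediate early genes had −0.95, −0.58 and 0.20. Acute phase genes were alike, at −1.88, −1.79 and −2.01. These differences between terciles were not tested.

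The genes whose middle ratio lay farthest beyond both outer terciles are given as 4 on each side. Above were Hsd17b6 (2.27, 3.08 and 1.87 from the low to the high tercile), Saa2 (−6.14, −5.49 and −6.12), Ctnnbip1, an inhibitor of beta-catenin (0.37, 0.94 and −0.02), and Cyp4a12b (2.15, 2.67 and 1.77). Below were Cyp2c29 (−0.22, −3.30 and −0.06), Oat (−0.02, −0.87 and 1.06), Mup17 (−1.49, −2.26 and −1.10) and Gulo (−0.49, −1.23 and 0.51). The added 5 CPM draws the ratio of a low level towards 0, which limits the low tercile values of such genes. At score 0 Oat was at 11.2 CPM in chow and 10.3 CPM in the NASH diet. The low tercile levels of Cyp2c29 and Gulo are not given here. The 4 below are pericentral genes here, with Mup17 at 11493 CPM in the high and 118 CPM in the low tercile of chow, and the upper limits of the score, which differ between the libraries, stand beside these values. Hsd17b6 is periportal, at 78.9, 30.2 and 1.29 CPM in chow and 401, 293 and 18.0 CPM in the NASH diet, and it was higher also in windows of equal score.

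**Figure D5:**
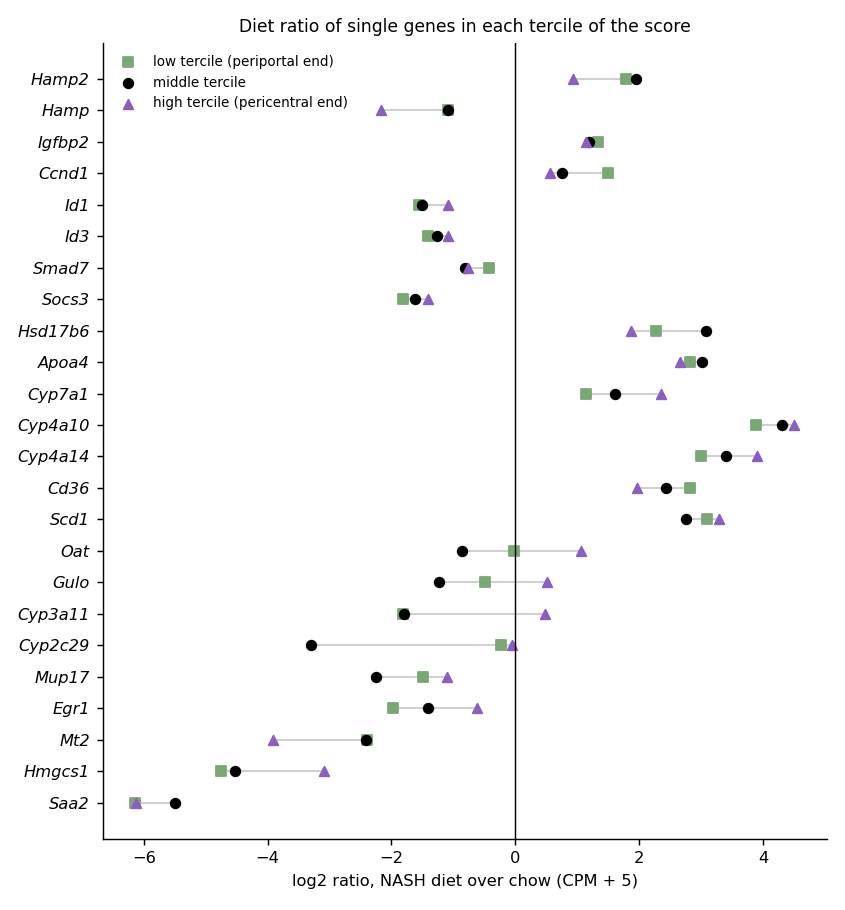
Log2 ratio of NASH diet over chow (x axis, CPM + 5) of 24 genes in the low (square), middle (circle) and high tercile (triangle) of the score. Hamp lies at −1.09 in the middle tercile and −2.17 in the high tercile, and Cyp2c29 at −3.30 in the middle tercile and near 0 in the outer terciles. The added 5 CPM draws ratios of low levels towards 0.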

How the data were processed

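Single-cell RNA of mouse liver was measured in 1 chow and 1 NASH diet library. For each library the authors deposited raw UMI counts (whole numbers, genes by barcodes), not normalized, written by software version 3.0.2 per the file headers. The submitters' processing notes name Cell Ranger 3.1.0, Seurat and build mm10. No source used here states their filters. A merged matrix held 86.4% of the chow UMIs and all NASH diet UMIs (100%), and was used as an alternative only. Of 31053 gene IDs, 30934 (99.6%) were found in GENCODE M21.

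The members and gene lists were chosen with earlier results of these data known. Counts were pooled over the barcodes of a tercile and given as CPM. A gene needed 20 CPM in either library (5 CPM for lists). Intervals are exact Poisson, Clopper-Pearson or conditional binomial at 95%, and leave out the spread between cells and mice. A count of 0 was read as allowing 3 UMIs or cells, or the upper Poisson limit where a level is given. Genes to name were the 12 highest and 12 lowest ratios, up to 2 highest and 2 lowest of each list, all midlobular, hepcidin control, score and gate genes, up to 10 genes highest in the middle tercile of both libraries, and 8 genes whose ratio lay beyond both outer terciles. Some of these have no value in the text, and further list members were named after their values were seen. Scrublet in scanpy 1.11.5 called 0 doublets by its own threshold, which did not work, so the barcodes with the highest scores were marked at 0.8% per 1000 barcodes and kept, except in an alternative. Barcodes with at least 4 endothelial or macrophage markers served as background. The code was tested on simulated data. Python 3.11.15, numpy 2.4.6, scipy 1.17.1 and pandas 2.3.3 were used, with seed 0. Proteins were not used here, and some genes of the lists are not reported here. Alternatives are in the closing section.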

Additional observations from a re-analysis of the deposited data

Results flagged for a closer look

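Of the 23 gene lists, 6 had medians on opposite sides of the high tercile in the 2 libraries, and in 3 of them both medians were at least 0.1 from 0 on the log2 scale. These 3 are given here. Median log2 levels of the middle over the high tercile were 0.29 in chow and −0.20 in the NASH diet for cholesterol synthesis and uptake, with 24 and 9 of 25 genes above the high tercile. They were 0.23 and −0.16 for fatty acid synthesis, with 11 and 6 of 17 genes above. They were 0.13 and −0.64 for immediate early and dissociation stress genes, with 12 and 0 of 13 above. The share of all genes above the high tercile is not given here, so these counts stand without a background. With 1 library per diet the differences between the libraries were not tested, and the upper score limits of 0.888 and 0.618 differ beside them.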

How the results depend on the processing

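The reported log2 values are 0.28 (chow) and 0.77 (NASH diet) for Hamp in the middle over both outer terciles, and −1.09 for Hamp and 1.94 for Hamp2 between diets. The diet pair is taken after adding 5 CPM. Without it the log2 ratio of Hamp2 is 2.62, the 6.14-fold given above. The reported log2 values kept their direction in every alternative, 12 for each of the first pair and 13 for each of the second. The counts of 108 and 146 genes were recomputed in 15. For Hamp over the outer terciles in chow the values were 0.040 with a mitochondrial limit of 20%, 0.20 in the merged matrix, 0.18 in the middle from 40% to 60% of the score ranks, 0.19 with the second score, 0.26 per 1000000 non-mitochondrial UMIs, 0.23 without barcodes of high Scrublet score, 0.18 without the 10% of barcodes with the most UMIs and 0.34 at score 0.1 to 0.9, a window chosen after seeing the data. In the NASH diet they were 1.16 at 20000 UMIs, 1.34 at the 20% limit, 0.55 from 40% to 60%, 0.72 at score 1/3 to 2/3, 0.68 with the second score, 0.60 as a mean over barcodes, 0.41 without the barcodes of most UMIs, 0.62 thinned and 1.22 at 0.1 to 0.9. The diet ratio of Hamp was −0.93 at 20000 UMIs, −0.27 at the 20% limit, −1.03 merged, −0.99 at 1/3 to 2/3, −1.01 non-mitochondrial, −1.13 as a mean over barcodes, −1.02 without high Scrublet scores, −1.12 thinned and −0.71 at 0.1 to 0.9. That of Hamp2 was 1.34 at the 20% limit, 1.57 without the barcodes of most UMIs and 2.44 with a pseudocount of 1. The 20% limit gave 509 higher genes, and a minimum of 100 CPM gave 51 higher and 83 lower with 1181 genes tested. The 20% limit kept 381 chow members of score 0 to 0.161 and 69 NASH diet members of score 0.0162 to 0.996, and the median of all genes became 0.34. Of 135 single genes, 25 turned there, 5 of them from past 2-fold (Gulo 2.92, Cyp3a11 2.09, Mup11 0.78, Mup17 3.17 and Cyp2c29 4.46) and 20 from under it, with Oat at 5.77, Cyp1a2 2.85, Cyp2f2 −1.06 and Hal −0.62. Of 23 list medians 6 turned, among them pericentral genes 2.16, periportal genes −0.15, iron handling −0.14, major urinary proteins 0.71 and fatty acid synthesis −0.051. At 20000 UMIs Gulo was 0.13, Cyp3a11 0.10, Mup17 0.46, Cyp2c29 0.10 and the pericentral median 0.31. Thinning gave medians of −0.027 for iron handling and −0.026 for the antioxidant list, a minimum of 100 CPM −0.018 for iron handling and −0.19 for the clock, and no minimum −0.048 for the antioxidant list. Apart from the smaller number of genes at 100 CPM, the cause was not tested. Per 1000000 non-mitochondrial UMIs the median of all genes was 0.16. No paired analysis was possible because each diet has 1 library. Depth limits Hamp2, Cidec and other genes of few UMIs.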

Other observations

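Further lists gave values in the middle tercile that belong to no comparison above, with the same minimum of 5 CPM and the same median of all genes (0.06). The background for each count below is that 1.65% of all these genes were 2-fold higher and 2.1% lower. Of 14 genes of the growth hormone and IGF axis 1 was 2-fold higher (Igfbp2) and 2 lower, with a median of −0.18. Igfbp1, a binding protein that fasting and stress raise, went from 232 to 11.4 CPM (−3.85), and Socs2, a feedback inhibitor of growth hormone signalling, from 34.4 to 11.4 CPM (−1.27). Igf1 itself was at 885 and 1059.6 CPM (0.26) and the receptor Ghr at 240 and 378 CPM (0.65).

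Clock genes were split. Dbp (11.5 to 75.9 CPM, 2.29), Tef (1.71), Per3 (1.5) and Per2 (1.28) were among the genes 2-fold higher, and Nr1d1 (−1.13) and Arntl (−1.08) were 2-fold lower, with a median of 0.47 over 17 genes. The hour of collection of each library is not given in the labels, so it cannot be told apart from the diet. Of 18 genes of glucose and fructose metabolism 2 were 2-fold higher, glycogen synthase Gys2 (31.8 to 134 CPM, 1.91) and the glucose transporter Slc2a2 (105 to 240 CPM, 1.15), with 0 lower and a median of 0.32.

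Of 17 antioxidant and metallothionein genes 1 was 2-fold higher (Gsta2, 1.53) and 2 lower, with a median of 0.11. Of 9 major urinary protein genes, near-identical copies, 2 were 2-fold lower (Mup17, −2.26, and Mup11, −1.92), with a median of −0.05. Of 14 genes of endoplasmic reticulum and integrated stress 2 were 2-fold lower (Sdf2l1, −1.09, and Pdia4, −1.02), with a median of −0.40. The 9 interferon genes had 0 past 2-fold and a median of −0.08. Of 3 cell cycle genes Cdkn1a, an inhibitor of division, was 2-fold lower (20.7 to 3.38 CPM, −1.61), with a median of 0.20. Of 18 hepatocyte transcription factors Ppara was 2-fold higher and Cebpb lower, both also members of lists above, with a median of 0.02.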
